A study of Mus musculus with 6 samples.

Results

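The genes described here encode 56 enzymes of central carbon metabolism, taken by symbol from a fixed list. The list covers glycolysis, the pentose phosphate pathway, pyruvate dehydrogenase, the TCA cycle and reactions that carry carbon into or out of it. All 56 were found among the 20624 genes of the deposited table, in 57 rows, since *Aldoa* has 2 identifiers and the row with the highest mean was kept. RNA was sequenced from 3 samples of wild type and 3 samples of *Pkd1*-/- mDCT15 cells, a mouse line of the distal convoluted tubule, after removal of ribosomal RNA. Both lines grew in the same medium with serum, and the knockout was made by CRISPR-Cas9 editing. The titles give the edited cells as *Pkd1*-/- and the genotype field as a knockdown, and whether they descend from 1 clone is not given in the sources used here. Of the values in the table, only the mean normalized count per gene was used, which is the authors' mean over all 6 samples. It holds no value of a single sample or of a single genotype. The wild type and *Pkd1*-/- cells were therefore not compared, the spread between replicates and the depth of each sample are unknown, and no level below has an error.

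Glycolysis splits glucose into pyruvate in the cytosol, and lactate dehydrogenase turns pyruvate into lactate. The pentose phosphate pathway branches off at glucose-6-phosphate and yields NADPH and ribose. Pyruvate that enters the mitochondria is turned into acetyl-CoA by the pyruvate dehydrogenase complex, which kinases switch off and phosphatases switch on, and the TCA cycle then oxidizes it. In the kidney, the distal convoluted tubule is rich in mitochondria, which supply its active salt transport.

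Of 7 markers of kidney epithelium, 5 were in the table. The kidney lineage genes *Cdh16*, *Pax8* and *Pax2* had mean normalized counts of 4680, 4905 and 2428, *Epcam* had 115 and the keratin gene *Krt8* 0.980, and *Cdh1* and *Krt18* were not analysed here. Of 6 markers of the distal convoluted tubule, 3 were in the table, *Wnk4* at 413, *Trpm6* at 29.6 and *Klhl3* at 5.70, while *Slc12a3*, the defining sodium chloride transporter of this segment, *Pvalb* and *Calb1* were not analysed here. Of 3 proximal tubule markers, the endocytic receptor gene *Lrp2* stood at 8826, but the transporter genes *Slc34a1* and *Slc5a2* at 2.04 and 2.77. The data therefore gave little from the segment's own markers to set beside the label. Of the fibroblast markers, *Col1a1* had a mean of 201, but *Pdgfra* had 4.12 and *Col1a2* 2.71. The leukocyte markers *Cd68* and *Ptprc* had 41.9 and 5.36. The endothelium marker *Pecam1* had 4.68 and the collecting duct marker *Scnn1g* 0.618. The targeted gene *Pkd1* had a mean normalized count of 3175, which does not show its level in either genotype.

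The 56 enzymes together held 0.819% of the 16746088 mean normalized counts of the table. With protein-coding genes alone in the total, the share was 0.914%. The rows *Gm26917* and *Gm42418* alone held 8.08% of all counts. Glycolysis and its regulators (21 genes) held 0.393%, the TCA cycle (15 genes) 0.259% and the pentose phosphate pathway (7 genes) 0.0819%. Pyruvate dehydrogenase and its regulators (9 genes) held 0.0598%, and the enzymes that carry carbon into or out of the TCA cycle (4 genes) 0.0253%. The enzymes with the highest means were the pyruvate kinase gene *Pkm* with 13479, *Aldoa* with 9817 and the citrate synthase gene *Cs* with 7604. These 3 genes held 22.5% of the summed mean counts of the 56, and the 10 highest held 53.9%. The lowest mean was 68.0, for *Aldoc*, and 54 of the 56 lay above the median of all genes, 104.5.

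**Figure D1:**
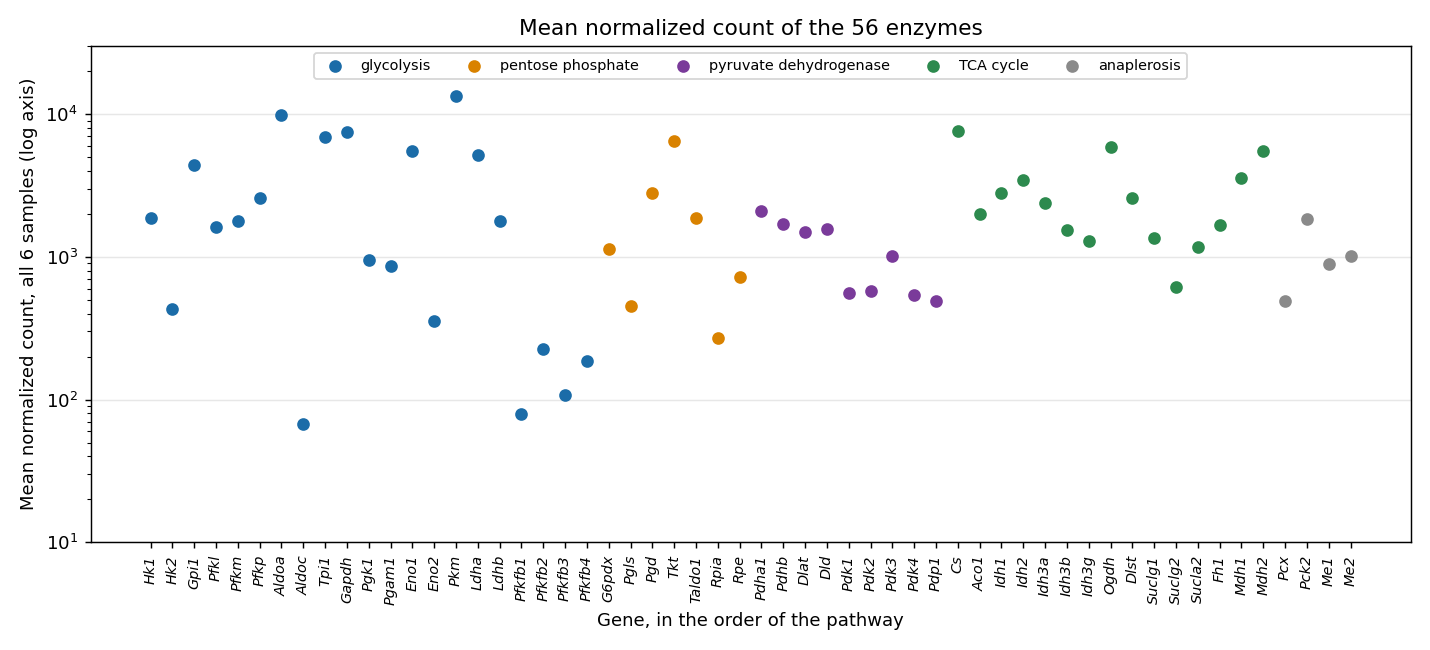
Mean normalized count over all 6 samples (log axis) of each of the 56 enzymes, in pathway order and coloured by pathway, with 1 point per gene and no error since the table holds none. Values run from 68.0 for *Aldoc* to 13479 for *Pkm*, and *Pgk1* and *Pgam1* lie below the glycolytic genes on either side of them.

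Levels of different genes were set side by side as the mean normalized count per kb of gene length, where the length is the union of all annotated exons. On this scale 14 of the 56 enzymes were at or above the 90th percentile of the 13608 genes whose mean reached 10, and 13 were below the median of these genes, 81.0 per kb. The upper group consisted of 8 glycolytic genes, *Taldo1* and *Tkt* of the pentose phosphate pathway, and *Cs*, *Mdh1*, *Mdh2* and *Ogdh* of the TCA cycle. All 4 *Pfkfb* genes, *Hk2*, *Aldoc*, *Eno2*, *Rpia*, *Rpe*, *Pdk1*, *Pdk2*, *Suclg2* and *Pcx* were in the lower group. With the length of the canonical transcript, 23 enzymes were at or above the 90th percentile, so this count depends on which length is used.

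Glucose enters glycolysis through hexokinase, and *Hk1*, which encodes the form most tissues use, was higher than *Hk2*. *Hk1* had a mean normalized count of 1882 and *Hk2*, the form known for its regulation by insulin and hypoxia, 431. Per kb of exons *Hk1* stood at 215 and *Hk2* at 52.1, and *Hk1* was above *Hk2* with each of the 6 ways of treating length. *Hk3* and *Hkdc1* were not analysed here. *Gpi1*, the isomerase that follows, had a mean of 4421, or 515 per kb.

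The phosphofructokinase genes were close to one another. This enzyme catalyses the committed step of glycolysis, and its liver, muscle and platelet forms are named after the tissues in which they were found. Mean normalized counts were 1605 for *Pfkl*, 1784 for *Pfkm* and 2585 for *Pfkp*. Per kb, *Pfkm* held 41.4%, *Pfkp* 32.7% and *Pfkl* 25.9%. *Pfkm* led with the union of exons, with and without the automatically built (TAGENE) models, and with the longest transcript, whereas *Pfkp* led with the canonical transcript (41.7%), the median coding transcript (42.3%) and no length (43.3%), so the data set no order between *Pfkm* and *Pfkp*. The *Pfkfb* genes, whose products make and remove the activator fructose-2,6-bisphosphate, were low. *Pfkfb1* had a mean of 78.8, *Pfkfb3* of 108, *Pfkfb4* of 186 and *Pfkfb2* of 227. The lead within them passed between *Pfkfb4* (37.1% per kb of exons) and *Pfkfb2* (39.4% per kb of the canonical transcript).

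In the aldolase step *Aldoa*, the ubiquitous form, held 99.2% and *Aldoc*, the brain form, 0.791%. The mean normalized counts were 9817 and 68.0. The second identifier that the table names *Aldoa* had a mean of 34.4, and in GENCODE M39 its gene overlaps *Aldoa* on the same strand. Exons of other genes on that strand covered 86.1% of the bases of the canonical *Aldoa* transcript, and counting by default sets aside reads that fall on 2 genes. The annotation release used for counting was an earlier one, and the effect on *Aldoa* was not tested. *Tpi1*, the gene of triosephosphate isomerase, had a mean of 6882 and a level of 2484 per kb of exons, the highest of the 56 enzymes with this length and with the longest transcript. With the canonical transcript, the median coding transcript and the union without TAGENE models *Aldoa* was the highest, and per kb of the canonical transcript it stood at 6497 against 4282 for *Tpi1*.

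Of the later steps of glycolysis, enolase and pyruvate kinase each had a single gene that held most of the level. *Gapdhs*, *Pgk2* and *Pgam2* were not analysed here, so *Gapdh*, *Pgk1* and *Pgam1* had no other gene of their step beside them. *Gapdh* had a mean normalized count of 7534. *Eno1*, the ubiquitous enolase, had 5537 and held 84.3% of its step per kb, against 10.2% for the neuronal form *Eno2* with a mean of 353. Over the 6 treatments of length the shares ran from 84.3% to 92.4% for *Eno1* and from 4.25% to 10.2% for *Eno2*. These shares leave out *Eno1b*, a protein-coding copy of *Eno1* with a mean of 778. *Pkm* held 95.9% of pyruvate kinase, and the liver and red cell form *Pklr*, with a mean of 160, held 4.07%. Per kb of the canonical transcript *Pklr* held 0.842%. *Pgk1* and *Pgam1*, the phosphoglycerate kinase and mutase genes that act between *Gapdh* and *Eno1*, had means of only 947 and 866. Per kb of the canonical transcript *Pgk1* stood at 519 and *Pgam1* at 481, against 5306 for *Gapdh*, 2415 for *Eno1* and 5506 for *Pkm*. *Pgk1* and *Pgam1* also had the 2 lowest levels among these 5 genes with each of the other 4 lengths.

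Reads of these genes can be hard to place, because several have copies elsewhere in the genome. The reads were 42 bases long, so every 42-base window of the canonical transcript of each enzyme was searched in GRCm39 on both strands. Windows without an exact match outside the gene made up 5.46% of the transcript for *Pgam1*, 6.61% for *Pgk1*, 14.3% for *Gapdh*, 34.5% for *Eno1*, 51.4% for *Pkm* and 55.5% for *Ldha*. For *Pgam1*, *Pgk1* and *Gapdh*, 0% of the coding windows were without a match, while in 39 of the 56 enzymes every coding window was. Below 90% lay 14 enzymes, 10 of the 21 glycolytic genes and 1 in each other group (*Taldo1*, *Pdhb*, *Suclg2* and *Me1*). The coding window with the most matches elsewhere is shown for the 4 lowest genes, in the direction of the transcript, with GRCm39 coordinates. The whole window matched, so no base is in capitals.

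*Pgam1* (chr19:41905124-41905165, plus strand, 4 matches elsewhere): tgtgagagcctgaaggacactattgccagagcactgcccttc
*Pgk1* (chrX:105243858-105243899, plus strand, 4 matches elsewhere): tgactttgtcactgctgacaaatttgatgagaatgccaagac
*Gapdh* (chr6:125139861-125139902, minus strand, 97 matches elsewhere): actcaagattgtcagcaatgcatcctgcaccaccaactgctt
*Eno1* (chr4:150329607-150329648, plus strand, 6 matches elsewhere): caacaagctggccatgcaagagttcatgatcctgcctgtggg

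The table also holds rows for some of the copies. *Gm13394*, a transcribed pseudogene that shares 917 windows with *Gapdh*, had a mean normalized count of 3496, which is 46.4% of that of *Gapdh*. In all, 111 genes of the table shared at least 50 windows with *Gapdh*. *Eno1b*, a protein-coding copy that shares 1443 windows with *Eno1*, had a mean of 778 (14.0% of *Eno1*). *Gm5514* stood at 188 beside *Ldhb*, and *Gm15163* at 77.3 beside *Suclg2*. The protein-coding gene *Cep85l*, which shares 222 windows with *Taldo1*, had a mean of 291 (15.5% of *Taldo1*). The copies of *Pgk1* and *Pgam1* in the table were near no reads, with at most 1.16 and 1.72. HTSeq-count by default leaves out reads that map to several places, and the second read of a pair can place the first. How many reads of each enzyme were lost or went to a copy was not tested. Exons of genes on the opposite strand covered part of the canonical transcript of 28 enzymes, most of all that of *Gapdh* (81.5%), and their part in the counts was not tested.

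**Figure D2:**
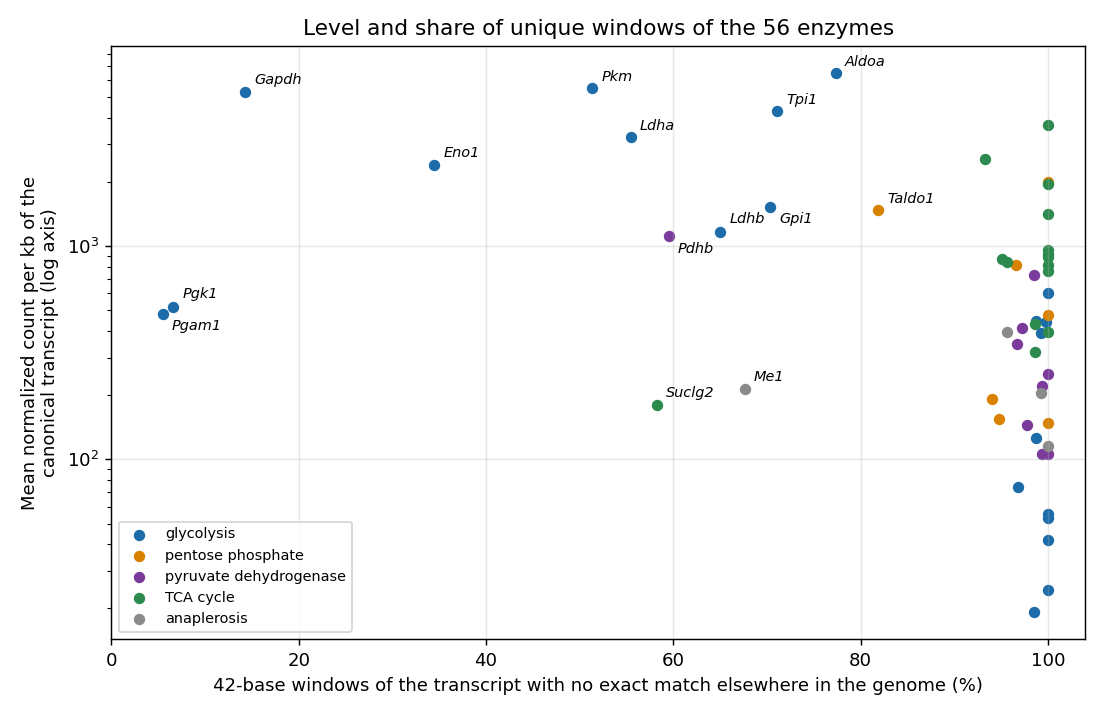
Level of each of the 56 enzymes, as the mean normalized count per kb of the canonical transcript (log axis), against the percentage of 42-base windows of that transcript with no exact match elsewhere in the genome. Points are genes coloured by pathway, with those under 90% named. *Pgam1* and *Pgk1* lie at 5.46% and 6.61% with levels of 481 and 519 per kb, and *Gapdh* at 14.3% with 5306 per kb.

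A count over the whole gene also merges the forms of *Pkm*. The gene (chr9:59563364-59586663, 157 annotated transcripts) has a pair of mutually exclusive exons of 167 bases, the first for the M1 form of differentiated tissue and the second for the M2 form of proliferating cells. The curated coding forms of *Pkm* differ only in these exons, which are printed to show what the table cannot separate. Capitals mark the positions at which they differ.

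*Pkm* M1 exon (chr9:59582312-59582478, plus strand): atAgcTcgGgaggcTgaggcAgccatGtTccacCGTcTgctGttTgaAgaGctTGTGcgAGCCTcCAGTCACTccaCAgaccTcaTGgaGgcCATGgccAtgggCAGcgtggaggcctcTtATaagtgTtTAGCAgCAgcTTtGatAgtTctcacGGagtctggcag
*Pkm* M2 exon (chr9:59582851-59583017, plus strand): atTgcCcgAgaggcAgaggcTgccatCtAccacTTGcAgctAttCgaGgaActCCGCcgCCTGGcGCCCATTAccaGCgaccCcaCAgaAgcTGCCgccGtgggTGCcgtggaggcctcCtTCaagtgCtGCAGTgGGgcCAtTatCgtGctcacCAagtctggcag

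The 2 exons were identical at 103 positions (61.7%) and shared 0 windows of 42 bases, so single reads could tell them apart, but the mean of 13479 for *Pkm* counts both.

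Lactate dehydrogenase is a tetramer of the subunits encoded by *Ldha*, which favours lactate formation, and *Ldhb*, which favours the return to pyruvate. *Ldha* had a mean normalized count of 5169 and *Ldhb* of 1789. Per kb, *Ldha* held 73.3% of the step, and it led with each length tried, with shares from 56.8% to 74.3%. *Ldhc*, the testis form, was not analysed here.

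In the pentose phosphate pathway the enzymes of the non-oxidative branch that move carbon back to glycolysis stood highest per kb, with each of the 5 lengths, while by mean normalized count *Pgd* lay between them. *Tkt*, the transketolase gene, had a mean normalized count of 6456 (617 per kb) and the transaldolase gene *Taldo1* had 1871 (767 per kb). Of the oxidative branch, *Pgd*, the second NADPH-producing enzyme, had 2813 (356 per kb). *G6pdx*, the first and rate-limiting dehydrogenase, had 1129 (174 per kb) and the lactonase gene *Pgls* 450 (87.0 per kb). The isomerase and epimerase genes *Rpia* and *Rpe* were low, with means of 272 (50.8 per kb) and 727 (54.9 per kb). *Tktl1* and *Tktl2* were not analysed here.

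Mean normalized counts of the pyruvate dehydrogenase subunits were 2089 for *Pdha1* and 1690 for *Pdhb*, the subunits of the first enzyme, 1481 for *Dlat*, its acetyltransferase core, and 1568 for *Dld*, the dehydrogenase that other complexes share. Per kb they ranged from 102 for *Dlat* to 391 for *Pdha1*. *Pdha1* led with the union of exons, and *Pdhb* with the canonical transcript, where it held 43.5% of the complex. *Pdhx*, the binding protein of the complex, had a mean of 619.9.

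All 4 kinases that inactivate the complex were present. *Pdk3* had the highest mean, 1015, followed by *Pdk2* with 579, *Pdk1* with 556 and *Pdk4*, known as the form induced by fasting, with 543. Per kb of exons *Pdk4* led with 36.0% and *Pdk3* followed with 31.1%. With each of the 5 other treatments of length *Pdk3* led instead, with 33.9% to 47.0%. Of the phosphatases that reactivate the complex, *Pdp1* had a mean of 494 and held 23.4% of their summed level. It was below *Pdp2* (1135, 50.7%) and the regulatory subunit gene *Pdpr* (1183, 25.9%).

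**Figure D3:**
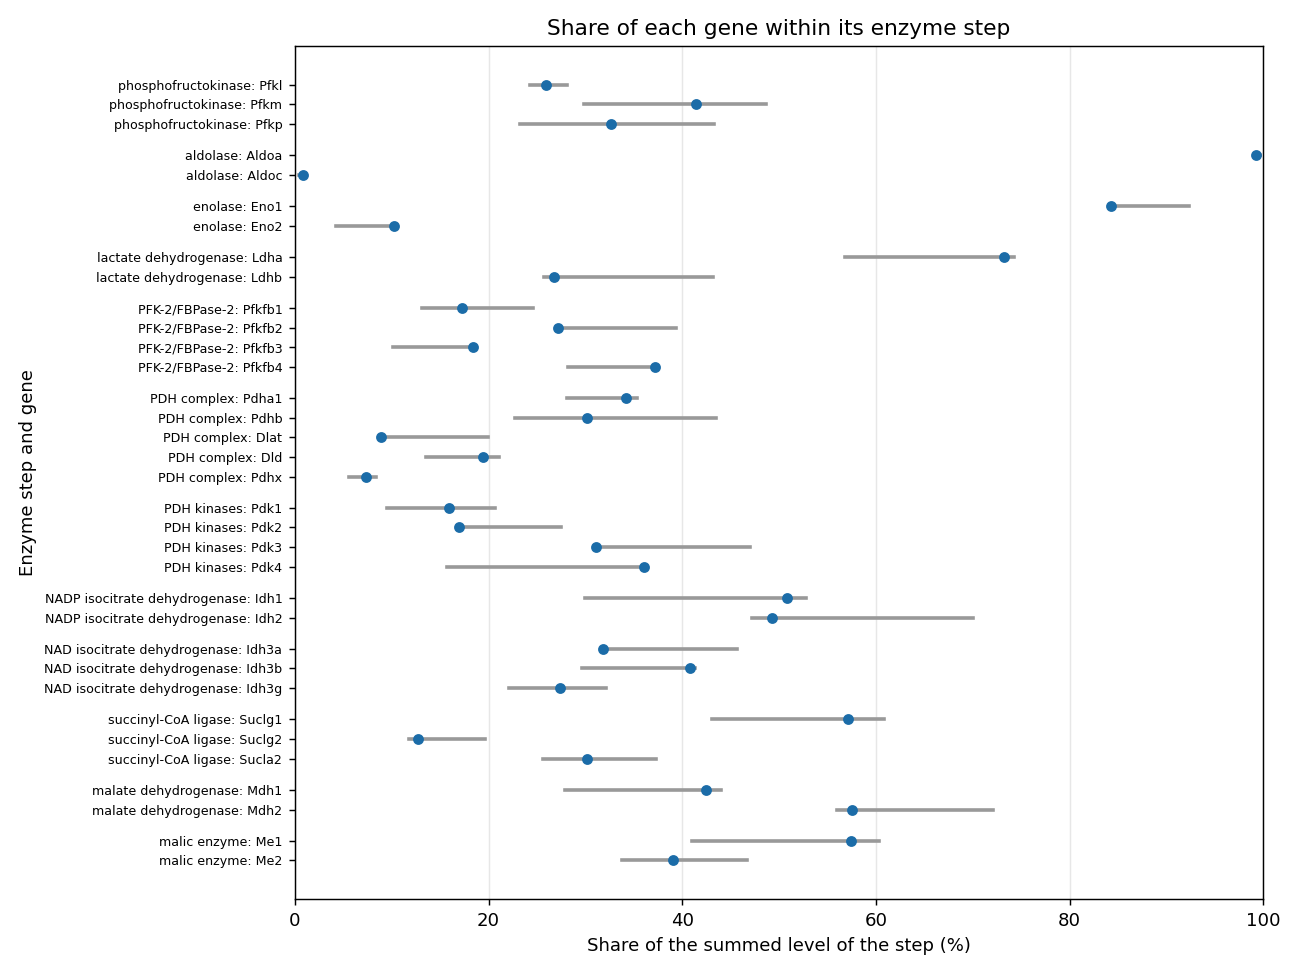
Share of each gene in the summed level of its enzyme step (%), for steps with at least 2 listed enzymes, hexokinase not included. Points give the share per kb of the union of exons, and grey lines the lowest and highest share over the 6 treatments of length, which are not error bars. The lines of *Mdh1* and *Mdh2*, or of *Ldha* and *Ldhb*, do not meet, while those of *Idh1* and *Idh2* or *Pdk3* and *Pdk4* do.

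The 15 TCA cycle genes had mean normalized counts from 619 to 7604. *Cs*, which joins acetyl-CoA and oxaloacetate, was the highest (1198 per kb). *Aco1*, the cytosolic aconitase that also acts as an iron regulatory protein, had 1988 (252 per kb). The 3 subunits of the NAD-linked isocitrate dehydrogenase were near one another, with 2381 for the catalytic *Idh3a*, 1547 for *Idh3b* and 1286 for *Idh3g*. Per kb their shares were 31.9%, 40.8% and 27.4%, and *Idh3a* led with no length (45.7%) and without the automatically built models (34.5%).

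The NADP-linked isocitrate dehydrogenases of cytosol and mitochondria, *Idh1* and *Idh2*, had mean normalized counts of 2790 and 3439. Per kb of exons they were nearly level at 50.8% and 49.2%, whereas *Idh2* held 69.9% per kb of the canonical transcript. *Ogdh*, the first enzyme of the oxoglutarate dehydrogenase complex, had a mean of 5921 and held 98.3% against its relative *Ogdhl* with 109. *Dlst*, the core of that complex, had 2564.

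Succinyl-CoA ligase pairs the shared subunit *Suclg1* with a GTP-forming partner, *Suclg2*, or an ATP-forming one, *Sucla2*. *Suclg1* had a mean normalized count of 1359, *Sucla2* of 1175 and *Suclg2* of 619. Per kb, *Sucla2* held 30.2% and *Suclg2* 12.7%, and *Sucla2* was above *Suclg2* with each length tried. Only 58.2% of the *Suclg2* windows were unique, against 100% for *Sucla2*. *Fh1*, the fumarase gene, had a mean of 1681. The malate dehydrogenases take part in the shuttle of reducing equivalents across the mitochondrial membrane. The mitochondrial *Mdh2* had 5531 (1028 per kb) and the cytosolic *Mdh1* 3560 (759 per kb), and *Mdh2* led with each length, with 55.9% to 72.1%.

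*Pcx*, *Pck2*, *Me1* and *Me2* encode enzymes that carry carbon into or out of the TCA cycle. *Pck2*, the mitochondrial phosphoenolpyruvate carboxykinase, stood highest of these with a mean normalized count of 1838 (219 per kb). *Pck1*, its cytosolic relative and a gluconeogenic enzyme, was not analysed here. *Pcx*, the pyruvate carboxylase that makes oxaloacetate, had 488 (78.2 per kb). The malic enzymes *Me1* of the cytosol and *Me2* of the mitochondria had 895 and 1018. Per kb of exons *Me1* stood at 146 and *Me2* at 99.4, and *Me1* held 57.4% of the step. *Me2* was above *Me1* with no length (46.6% against 41.0%).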

How the data were processed

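RNA of 6 mDCT15 samples, 3 wild type and 3 *Pkd1*-/-, grouped by their titles, was sequenced by the authors as paired reads of 42 bases. Per the labels and methods, reads were trimmed with Trim Galore 0.4.5, mapped with STAR 2.7.5a to GRCm39, counted with HTSeq 0.11.0 on an Ensembl annotation and compared with DESeq2 1.22.0 in R 3.5.3. The deposited mean normalized count is a signal that the authors obtained by dividing counts by size factors and averaging all samples. The lowest mean in the table is 0.618. The other 5 numeric columns hold the authors' own comparison of the genotypes (log2 fold change, standard error, statistic, p-value and adjusted p-value) and were not used, so no test was made, and 0 columns hold single samples.

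The 56 enzymes and the lists were chosen with earlier results of these data known. Identifiers were matched to GENCODE M39 (20122 of 20624, 97.6%), which is on GRCm39 but holds more transcripts than the release used for counting. Union exon length in it was a median 1.34 times that without automatically built (TAGENE) models. Every enzyme was named, and other genes of a step were named when they held at least 5% of its level. *Pklr*, *Ogdhl*, *Cep85l* and the copies were named after their values were seen. Some genes of the steps are not reported here. Matches of 42-base windows were exact, searched with a script tested on simulated data. Alternatives were other lengths, filters and totals. Scripts ran in Python 3.11.15 with matplotlib 3.10.9 for plots, pandas 2.3.3 for tables, numpy 2.4.6 and, for binomial intervals, scipy 1.17.1.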

Additional observations from a re-analysis of the deposited data

How the results depend on the processing

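The share of all mean normalized counts held by the enzymes moved to 0.914% with protein-coding genes only and to 0.891% without *Gm26917* and *Gm42418*. The gene that led a step was unchanged in 17 of 17 steps when all rows of a symbol were summed. It was unchanged in 15 with the longest transcript, 14 without TAGENE models, 12 with the canonical transcript, 11 with the median coding transcript and 10 with no length. The enzymes at or above the 90th percentile of genes per kb numbered 14 with the union of exons, 23 with the canonical transcript and 22 with no minimum mean, and 13 to 20 with the other settings. The canonical transcript, the union without TAGENE models and the total without the 2 rows were chosen after seeing the data. No paired analysis was possible because the table holds no values of single samples. A fit of the genotype difference, planned only for counts per sample, was not run for the same reason.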

Other observations

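Genes that bring substrate to these pathways spanned a wide range of levels. The glucose transporter gene *Slc2a1* had a mean normalized count of 959, while *Slc2a4* stood at 55.1, *Slc2a2* at 28.7 and *Slc2a3* at 2.35, and the sodium-coupled transporters *Slc5a1* and *Slc5a2* at 0.943 and 2.77. Among the monocarboxylate transporters, which carry lactate and pyruvate, *Slc16a1* had 1283, *Slc16a7* 136 and *Slc16a3*, the form known from glycolytic cells, 3.20. The subunits of the mitochondrial pyruvate carrier, *Mpc1* and *Mpc2*, had 189 and 626.

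The 4 subunits of succinate dehydrogenase, the TCA cycle enzyme outside the list of 56, had means of 3021 for *Sdha*, 2027 for *Sdhb*, 2086 for *Sdhc* and 1536 for *Sdhd*. Of 5 genes of gluconeogenesis, *G6pc3* had 255 and *Fbp2* 52.1, and *G6pc1*, *Fbp1* and *Pck1* were not analysed here.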
